A study of Mus musculus with 20 samples.

Results

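Solute carriers are membrane proteins that move sugars, amino acids, ions, vitamins and metabolites into and out of cells and organelles. The genes described here are the 160 solute carrier symbols (Slc followed by a digit) whose level averaged at least 1 RPKM (reads per kilobase of transcript, scaled to the library total) over the 4 spleen libraries. They were drawn from 355 such symbols among 22878 gene symbols in all, and 1 symbol (Slc27a6) was left out in advance. The members were thus chosen by their measured mean level, and being expressed in the spleen is a property of the choice. The lymph node values played no part in it. The mean was taken over both spleen groups, and 4 members were below 1 RPKM in 1 group and entered through the other. These were Slc4a8 (mean 0.944 RPKM in ZsGreen+ against 2.02 in ZsGreen-), Slc29a4 (0.750 against 1.57), Slc22a17 (1.74 against 0.997) and Slc29a2 (1.49 against 0.683). Just inside the minimum stood Slc29a2 at 1.09 RPKM, Slc30a1 at 1.11 and Slc46a1 at 1.14. Just outside it stood Slc22a15 at 0.981, Slc39a14 at 0.885 and Slc12a2 at 0.858.

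The study used C57BL/6-background mice and sorted their CD4 T cells by whether they express, or once expressed, T-bet, the T helper 1 transcription factor encoded by Tbx21. The 2 spleen groups were CD44-high CD25-negative CD4 T cells of naive mice carrying T-bet-ZsGreen-T2A-CreERT2 with a Rosa26-loxP-STOP-loxP-tdTomato allele. Both were tdTomato+, and they differed in T-bet-ZsGreen, the reporter of T-bet at the time of the sort (ZsGreen+ or ZsGreen-). The 4 lymph node groups came from T-bet-Cre mice with the same tdTomato allele, whose draining lymph nodes were taken 16 days after the mice received AS15 with the adjuvant CFA. Cells binding the AS15 tetramer were split into CXCR5-high PD1-high follicular helper cells (Tfh) and CXCR5-low PD1-low cells (non-Tfh), and each was split by Tomato, which marks cells in which T-bet drove Cre at any time. Each of the 6 groups had 2 RNA libraries. The labels do not say whether the 2 libraries of a group came from separate mice, so the p-values measure the spread between these libraries, which may be technical.

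T cells depend on solute carriers when they are activated. Glucose enters through the Slc2 family, lactate leaves through the Slc16 family, and neutral amino acids enter through Slc1a5, the Slc38 family and the pair of Slc7a5 with its partner chain Slc3a2, which T cells raise after antigen. Ion carriers of the Slc9, Slc4 and Slc12 families set pH and cell volume, Slc39 and Slc30 carriers move zinc, Slc25 carriers span the inner mitochondrial membrane, and Slc35 carriers bring nucleotide sugars into the Golgi. By family, 55 members were put in a nutrient class, 43 in an ion class and 62 in a class of other carriers. The other class held 34 mitochondrial carriers, 17 nucleotide sugar carriers, 7 remaining carriers and 4 symbols that do not encode carriers (Slc9a3r1, Slc7a6os, Slc4a1ap and Slc2a4rg-ps).

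Upstream sequence is shown for 4 members that changed in the spleen, to let the changes be read against the start of the gene. The 4 are those with the largest rises (Slc16a10 and Slc16a3) and falls (Slc43a1 and Slc25a42) that reached 3 RPKM in a group and had a single promoter in the RefSeq promoter table. Each line gives the 250 bases before the annotated start in GRCm38.p6, 5′ to 3′ on the gene's strand, with capitals marking the T-box core GGTGTG (or its reverse complement CACACC) and the E-box CACGTG, the kind of site bound by Myc.
Slc16a10 (chr10:40142255-40142504, minus strand): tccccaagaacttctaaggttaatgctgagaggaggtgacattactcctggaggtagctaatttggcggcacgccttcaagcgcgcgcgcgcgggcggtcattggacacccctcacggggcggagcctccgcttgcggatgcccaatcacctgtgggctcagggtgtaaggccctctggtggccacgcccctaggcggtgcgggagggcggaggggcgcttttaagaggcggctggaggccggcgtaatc
Slc16a3 (chr11:120948817-120949066, plus strand): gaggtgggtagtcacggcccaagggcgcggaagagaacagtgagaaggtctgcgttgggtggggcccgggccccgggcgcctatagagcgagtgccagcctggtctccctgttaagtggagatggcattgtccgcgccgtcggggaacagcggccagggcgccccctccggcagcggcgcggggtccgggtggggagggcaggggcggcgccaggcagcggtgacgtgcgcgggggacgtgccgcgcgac
Slc43a1 (chr2:84840073-84840322, plus strand): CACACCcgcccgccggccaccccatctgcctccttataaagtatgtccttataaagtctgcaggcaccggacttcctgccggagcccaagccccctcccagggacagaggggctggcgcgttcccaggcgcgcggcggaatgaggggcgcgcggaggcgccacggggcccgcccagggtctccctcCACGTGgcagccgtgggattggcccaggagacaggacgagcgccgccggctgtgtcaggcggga
Slc25a42 (chr8:70212282-70212531, minus strand): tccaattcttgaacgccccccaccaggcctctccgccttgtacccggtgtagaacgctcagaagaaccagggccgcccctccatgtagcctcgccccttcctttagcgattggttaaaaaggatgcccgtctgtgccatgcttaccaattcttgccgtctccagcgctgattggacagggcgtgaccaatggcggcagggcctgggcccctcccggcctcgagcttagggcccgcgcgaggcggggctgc
Only Slc43a1, which fell, held either motif, with 1 match to each. The T-box core was present in 16.3% of the 32851 promoters of the table and in 19.1% of the 162 promoters found for 122 members. The E-box was present in 6.02% of all promoters and in 13.6% of the members' promoters. A match describes letters in the window and is not a measured binding site.

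Total reads over genes ran from 13169783 to 24174592 per library. Tbx21 separated the groups in the direction of their labels, at 193 and 214 RPKM in spleen ZsGreen+ against 46.4 and 45.3 in ZsGreen-, and at 53.0 to 183 in the 4 Tomato+ libraries against 10.4 to 12.9 in the 4 Tomato- libraries. The spleen libraries repeated each other closely, and no member differed more than 2-fold between the 2 libraries of a spleen group on the log2(RPKM + 1) scale. In the lymph node 39 to 65 of the 160 members did so, depending on the group. The common biological coefficient of variation, edgeR's measure of spread between replicates, was 0.0867 for the spleen libraries and 0.908 for those of the lymph node. The number of members at 1 RPKM or more was 157 or 158 in each spleen library and 113 to 141 in each lymph node library, where 7 to 18 members had fewer than 3 reads. Cd4 itself was detected in all 12 libraries, at 189 to 199 RPKM in spleen ZsGreen+ and 340 to 444 in the lymph node.

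**Figure D1:**
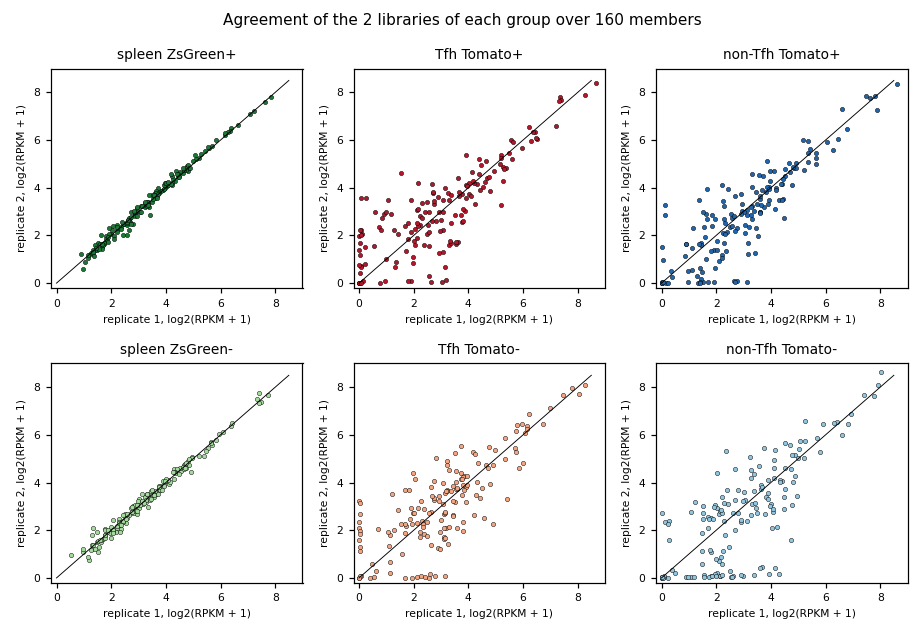
Level of the 160 members in replicate 1 (x axis) against replicate 2 (y axis) of each of the 6 groups, as log2(RPKM + 1), with the line of equality. Points of the spleen groups lie along the line, and in the lymph node groups 39 to 65 members lie more than 2-fold from it.

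In the spleen, cells with present T-bet expression carried more RNA for the glucose carrier Slc2a3, the carboxylate family members Slc16a10, Slc16a6 and Slc16a3 and the fatty acid carrier Slc27a1. They carried less RNA for Slc16a5, the amino acid carriers Slc43a1 and Slc1a5, the adenine nucleotide carrier Slc25a4 and several sodium, proton and bicarbonate carriers. All 160 members were tested and 48 (30.0%) passed an adjusted p of 0.05 in edgeR's quasi-likelihood test, against 23.8% of all 12918 genes tested. Among genes of the same spleen level, a mean of 1 RPKM or more, 25.6% passed. Of the 48, 25 rose and 23 fell in ZsGreen+ cells, against 11.4% and 12.4% of all genes, and 7 changed at least 2-fold. The counts of falls and of 2-fold changes both include Slc4a8 and Slc29a4, whose membership rested on the group where they were higher. The median log2 difference was 0.04 over the members and 0.00 over all genes. In bulk libraries fewer cells of a type and less RNA per cell cannot be told apart. Other cell type markers differed between the same groups. The summed level of 11 markers of NK and innate-like T cells was 434 to 446 RPKM in ZsGreen+ and 47.8 to 57.9 in ZsGreen-, and all 11 rose. The 15 macrophage and monocyte markers summed to 516 to 644 against 431 to 453 RPKM, and 4 of them rose, of which 1 was called on leaving out any library. The 11 neutrophil markers summed to 1167 to 1227 against 784 to 1057 RPKM, and 2 rose, 1 of them on leaving out any library. The 12 proliferation markers summed to 237 to 246 against 255 to 270 RPKM, with 1 that rose and 8 that fell. Cd4 fell by 0.98 on the log2 scale (adjusted p = 2.09e-05, edgeR). The part of these markers in the transporter differences was not tested.

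**Figure D2:**
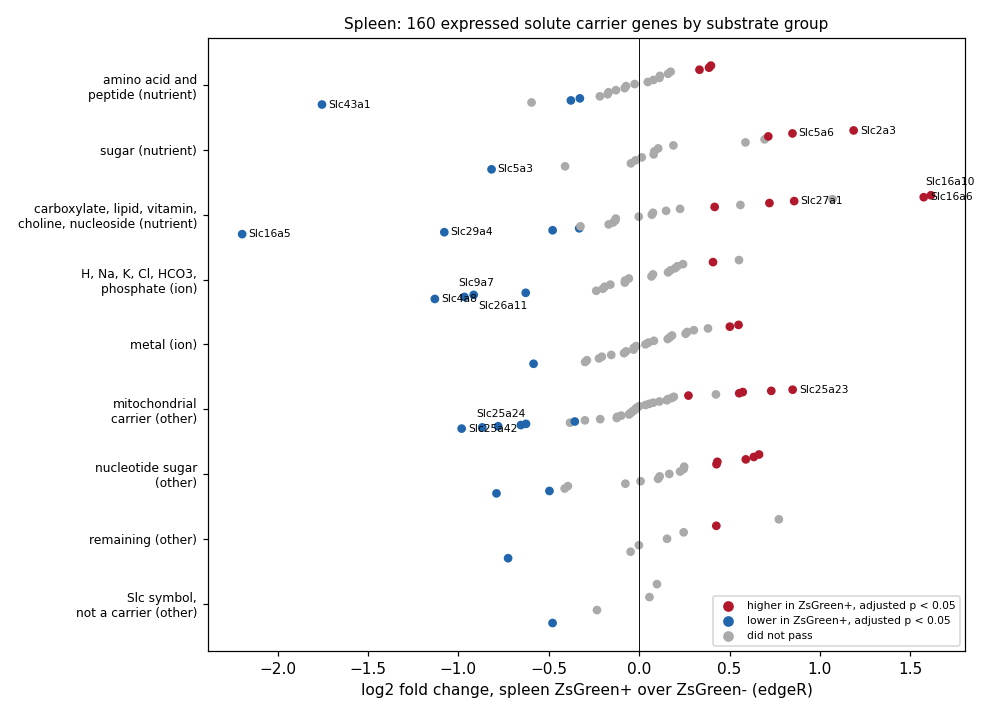
Log2 fold change of each of the 160 members between spleen ZsGreen+ and ZsGreen- libraries (x axis, edgeR), in rows by substrate group of the carrier family. Red points (25) rose and blue points (23) fell at an adjusted p below 0.05, grey points did not pass, and called members that moved by 0.8 or more are named.

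Nutrient carriers divided almost evenly, with 11 that rose and 8 that fell of 55 (34.5% called, median log2 difference 0.07). Spleen counts by class, family or list, here and below, stand beside 11.4% of all genes that rose and 12.4% that fell. In the sugar families 3 of 14 rose and 1 fell. Slc2a3, the high-affinity glucose transporter GLUT3, was at 32.6 and 40.5 RPKM in ZsGreen+ and at 15.3 and 15.9 in ZsGreen-. It rose 2.28-fold (log2 1.19 ± 0.10 SE, adjusted p = 2.77e-05, edgeR, 2 libraries a group) and its groups did not overlap. Slc2a1, the widely expressed glucose transporter GLUT1, stood at 25.9 and 25.9 RPKM in ZsGreen+ and at 25.1 and 26.1 in ZsGreen-. Its log2 difference was -0.02 ± 0.08 (SE, adjusted p = 0.890, edgeR), so Slc2a3 exceeded Slc2a1 in both ZsGreen+ libraries and lay below it in both ZsGreen- libraries. Slc2a8, an intracellular hexose transporter, rose 1.64-fold, from 11.5 and 12.2 RPKM to 17.1 and 23.0. The Slc5 family was placed with the sugar carriers, but the members that changed carry other substrates. Slc5a6, the sodium-dependent transporter of biotin and pantothenate, was at 3.81 and 4.16 RPKM in ZsGreen+ against 2.10 and 2.22 in ZsGreen- and rose 1.80-fold. Slc5a3, the myo-inositol transporter, was at 1.61 and 1.76 RPKM against 2.74 and 3.05 and fell 1.76-fold. Slc5a3 overlaps Mrps6 in the RefSeq annotation of GRCm38, and Mrps6 also fell (log2 -0.90 ± 0.11 SE), so reads of the 2 genes may be shared.

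The Slc16 family held both the largest rise and the largest fall of the set, with 3 of 6 members up and 1 down. Slc16a10, a transporter of aromatic amino acids, was at 7.85 and 8.47 RPKM in ZsGreen+ and at 2.23 and 2.97 in ZsGreen-. It rose 3.06-fold (log2 1.61 ± 0.13 SE, adjusted p = 1.61e-05, edgeR). Slc16a6, a monocarboxylate family member, was at 15.9 and 18.2 RPKM against 5.55 and 5.57 and rose 2.98-fold (log2 1.57 ± 0.09 SE, adjusted p = 2.41e-06, edgeR). It overlaps Arsg, which was at 0.857 and 0.902 RPKM in ZsGreen+ and at 1.21 and 1.49 in ZsGreen-, the opposite order. Slc16a3, the lactate exporter MCT4, was at 11.0 and 11.7 RPKM against 6.65 and 6.80 and rose 1.65-fold. Its neighbour Csnk1d, which it overlaps, had a log2 difference of 0.00 ± 0.09 (SE). Slc16a1, the lactate and pyruvate carrier MCT1, was at 8.52 and 9.18 RPKM against 8.98 and 10.4, and these values overlapped (log2 -0.17 ± 0.10 SE, adjusted p = 0.269, edgeR). Slc16a5, a monocarboxylate family member, was at 1.35 and 1.49 RPKM in ZsGreen+ and at 5.83 and 6.89 in ZsGreen-. It fell 4.58-fold, the largest change among the 160 members (log2 -2.20 ± 0.16 SE, adjusted p = 8.87e-06, edgeR). The libraries of each of these 4 called carriers separated completely between the groups, and each was called after leaving out any 1 of the 4 libraries.

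Lipid and nucleoside carriers also changed. Slc27a1, a fatty acid transport protein, was at 6.12 and 6.63 RPKM in ZsGreen+ against 3.21 and 3.65 and rose 1.81-fold. Slc27a4, of the same family, rose 1.34-fold, from 4.74 and 4.94 RPKM to 6.05 and 7.25, a call lost without ZsGreen+ replicate 2 (adjusted p = 0.181, edgeR). The called members of the equilibrative nucleoside transporter family went the other way. Slc29a2, of the same family, had a higher mean in ZsGreen+ (1.49 against 0.683 RPKM) and did not pass. It entered the set through its ZsGreen+ level. Slc29a1 was at 36.4 and 36.5 RPKM against 49.3 and 49.6 and fell 1.39-fold. Slc29a3, its lysosomal relative, fell 1.26-fold, from 6.08 and 6.70 RPKM to 4.87 and 5.53, a call lost without ZsGreen+ replicate 2 (adjusted p = 0.280) or ZsGreen- replicate 1 (0.139), in DESeq2 (0.0738) and in limma (0.126). Slc29a4, a transporter of monoamines, was low in both groups, at 0.523 and 0.978 RPKM against 1.50 and 1.63, and it entered the set through its ZsGreen- level. Its call was lost without ZsGreen+ replicate 2 (adjusted p = 0.127, edgeR).

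Of 20 members of amino acid and peptide carrier families, which leave out Slc16a10 of the Slc16 family, 3 rose and 3 fell. Slc43a1, the neutral amino acid transporter LAT3, was at 1.42 and 1.44 RPKM in ZsGreen+ and at 4.58 and 4.83 in ZsGreen-. It fell 3.37-fold (log2 -1.75 ± 0.16 SE, adjusted p = 3.86e-05, edgeR), while the other 5 called members of these families moved 1.32-fold or less. Slc1a5, the glutamine transporter ASCT2, was among the most abundant members, at 134 and 137 RPKM against 164 and 179, and fell 1.30-fold (log2 -0.38 ± 0.08 SE, adjusted p = 0.00504, edgeR). Slc3a2, the CD98 heavy chain, was at 71.0 and 78.1 RPKM against 53.7 and 56.6 and rose 1.32-fold (log2 0.40 ± 0.08 SE, adjusted p = 0.00439, edgeR). Slc3a2 pairs with some carriers of the Slc7 family as light chains, though not with all of them. None of the 4 Slc7 family members of the set passed the test in edgeR, DESeq2 or limma (0 at an unadjusted p below 0.05 in edgeR). Slc7a5 was at 2.12 and 2.17 RPKM against 1.84 and 2.13 (log2 0.08 ± 0.16 SE, adjusted p = 0.774, edgeR). The cationic amino acid carrier Slc7a1 was at 4.94 and 5.04 RPKM against 4.95 and 5.33, again overlapping. Slc38a2, the neutral amino acid carrier SNAT2, was at 27.8 and 28.4 RPKM against 18.8 and 23.0 and rose 1.31-fold. Its call was lost without ZsGreen- replicate 1 (adjusted p = 0.0767) or ZsGreen+ replicate 1 (0.0597). Slc38a10 rose 1.26-fold, a call lost without ZsGreen+ replicate 2 (adjusted p = 0.0723), and Slc38a1, a related glutamine carrier, had a log2 difference of 0.11 ± 0.07 (SE). Slc43a2 fell 1.26-fold, a call lost without either ZsGreen+ library (adjusted p = 0.0749 and 0.0599, edgeR) and in limma (0.0985).

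Of 43 ion carriers 3 rose and 5 fell (18.6% called, median log2 difference -0.02), beside 34.5% of nutrient carriers and 33.9% of the other class. Whether the classes differ was not tested. Among carriers of protons, sodium, potassium, chloride, bicarbonate and phosphate, 4 of 20 fell and 1 rose. Slc9a7, a sodium and proton exchanger of the Golgi, was at 4.52 and 4.56 RPKM in ZsGreen+ and at 8.62 and 8.68 in ZsGreen- and fell 1.95-fold (log2 -0.97 ± 0.11 SE, adjusted p = 2.00e-04, edgeR). The bicarbonate carrier Slc4a7 was at 4.35 and 4.91 against 6.70 and 7.25 RPKM and fell 1.54-fold. Its relative Slc4a8, counted among the 4, was at 0.844 and 1.04 against 2.01 and 2.03 RPKM, a 2.19-fold lower level that is given as a description, since Slc4a8 entered the set through its ZsGreen- level. Slc26a11, an anion carrier that transports sulfate, was at 8.11 and 8.33 RPKM against 14.6 and 15.6 and fell 1.89-fold. The phosphate carrier Slc20a1 and the potassium chloride cotransporter Slc12a7 did not pass, at log2 differences of 0.17 ± 0.07 and -0.08 ± 0.11 (SE).

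Of 23 metal carriers 2 rose and 1 fell (13.0% called, against 23.8% of all genes). Slc11a2, the iron importer DMT1, was at 17.9 and 21.2 RPKM in ZsGreen+ against 12.7 and 13.3 and rose 1.46-fold. Slc39a4, a zinc importer, was at 14.7 and 17.4 RPKM against 10.4 and 11.6 and rose 1.42-fold. Slc41a1, a magnesium carrier, was at 8.61 and 8.91 RPKM against 12.5 and 13.1 and fell 1.50-fold. These 3 had groups that did not overlap. The most abundant metal carrier, the endoplasmic reticulum zinc carrier Slc39a7, had 76.0 and 79.1 RPKM against 67.5 and 67.8 and did not pass (adjusted p = 0.154, edgeR), nor did the zinc carriers Slc39a6 and Slc30a1.

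Mitochondrial carriers held 5 that rose and 6 that fell of 34 (32.4% called, against 23.8% of all genes). Slc25a4, the adenine nucleotide translocase ANT1 that exchanges ADP for ATP, was at 97.6 and 99.0 RPKM in ZsGreen+ and at 161 and 168 in ZsGreen-. It fell 1.72-fold (log2 -0.78 ± 0.07 SE, adjusted p = 4.90e-05, edgeR). Its close paralog Slc25a5 (ANT2) was at 222 and 227 RPKM against 204 and 211 and did not pass (log2 0.08 ± 0.07 SE, adjusted p = 0.487, edgeR). The sources used here do not give how reads matching both genes were counted. Slc25a42, the coenzyme A carrier, was at 1.86 and 2.25 RPKM against 3.72 and 4.18 and fell 1.97-fold. Of the calcium-regulated carriers of ATP and phosphate, Slc25a24 fell 1.82-fold, from 16.5 and 18.6 RPKM to 9.48 and 10.2, and Slc25a23 rose 1.80-fold, from 1.30 and 1.43 RPKM to 2.06 and 3.03. The Slc25a23 call was lost without ZsGreen+ replicate 2 (adjusted p = 0.118, edgeR). The pyrimidine nucleotide carrier Slc25a33 fell 1.54-fold, a call lost without ZsGreen+ replicate 2 (adjusted p = 0.0764). Carriers linked to iron and heme did not move one way. The iron carrier Slc25a37 (mitoferrin 1) was at 8.45 and 9.51 RPKM against 5.21 and 5.31 and rose 1.66-fold. Slc25a28 (mitoferrin 2) rose 1.47-fold, but lost its call without ZsGreen+ replicate 2 (adjusted p = 0.193) or ZsGreen- replicate 1 (0.0651). Slc25a38, the glycine carrier of heme synthesis, fell 1.28-fold and lost its call without the same libraries (adjusted p = 0.10 and 0.0519, edgeR). The dicarboxylate carrier Slc25a10 rose 1.49-fold, from 3.63 and 3.94 RPKM to 5.68 and 5.90. The branched-chain amino acid carrier Slc25a44 rose 1.21-fold, and its call was lost on leaving out any 1 of the 4 libraries (adjusted p 0.0711 to 0.181, edgeR) and in DESeq2 (0.0986).

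Of 17 members of the Slc35 family, grouped as nucleotide sugar carriers, 5 rose and 2 fell, with a median log2 difference of 0.17. The share called was 41.2%, against 23.8% of all genes. The family was placed as a whole, and the substrates of single members were not checked. Slc35e1 was at 10.5 and 10.6 RPKM against 5.87 and 7.08 and rose 1.58-fold. Slc35b4, which carries UDP-xylose and UDP-N-acetylglucosamine, was at 15.1 and 17.2 RPKM against 9.49 and 10.8 and rose 1.55-fold. Slc35f2, Slc35c2 and Slc35a5 rose 1.51-fold, 1.35-fold and 1.35-fold. Slc35d2, a UDP-N-acetylglucosamine carrier, was at 5.42 and 5.70 RPKM against 8.86 and 9.87 and fell 1.73-fold, and Slc35b3, which brings the sulfate donor PAPS into the Golgi, fell 1.41-fold. Slc35a2, the UDP-galactose carrier, had a log2 difference of 0.23 ± 0.11 (SE, adjusted p = 0.184, edgeR). Among the remaining carriers Slc17a9, the vesicular nucleotide transporter, fell 1.65-fold, from 19.5 and 21.3 RPKM to 12.3 and 13.0, and the urea transporter Slc14a1 rose 1.34-fold. The pseudogene symbol Slc2a4rg-ps fell 1.39-fold.

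Regulators and partners of these carriers changed in both directions in the same spleen comparison, with 6 of 23 tested that rose and 5 that fell. The share called was 47.8%, against 23.8% of all genes. Nedd4, a ubiquitin ligase that controls membrane carriers, was at 17.2 and 20.8 RPKM in ZsGreen+ against 1.32 and 1.32 (log2 3.80 ± 0.11 SE, adjusted p = 1.43e-07, edgeR). Txnip, which lowers glucose uptake, rose from 122 and 166 RPKM to 266 and 286, and Myc, an activator of transporter genes in T cells, from 32.4 and 37.2 to 55.1 and 57.5. Sesn1, Rptor and Nfe2l2 also rose, though Nfe2l2 was called in only 2 of the 4 fits that left out 1 library (adjusted p up to 0.145, edgeR). Hif1a, the hypoxia factor that raises glycolytic genes, fell from 57.9 and 61.2 RPKM to 35.1 and 38.4, and Trib3, Ddit4, Srebf2 and Emb fell as well. Emb and Bsg encode accessory chains of the Slc16 lactate carriers, and Bsg did not pass (99.9 and 110 against 95.4 and 110 RPKM). Of 16 P-type ion pump genes Atp1b1 rose, and Atp1b3 and Atp2a3 fell. The Atp2a3 call (adjusted p = 0.0331) held in 1 of the 4 fits that left out 1 library (up to 0.109, edgeR). Of 22 carriers named outside the Slc series Mfsd10, Slco3a1 and Slco4a1 rose and Sfxn3 and Mfsd2a fell. The Mfsd2a call (adjusted p = 0.0257) was lost on leaving out any 1 library (0.0524 to 0.117), and that of Slco3a1 held in 3 of the 4 fits (up to 0.0624, edgeR). Of 14 transporters typical of phagocytes, all tested, 2 fell (Slc29a3 and Slc43a2) and none rose. Those that mark iron-handling macrophages were present in all 4 spleen libraries, with Slc40a1 (ferroportin) at 5.34 to 9.59 RPKM and Slc11a1 (NRAMP1) at 3.47 to 5.26.

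**Figure D3:**
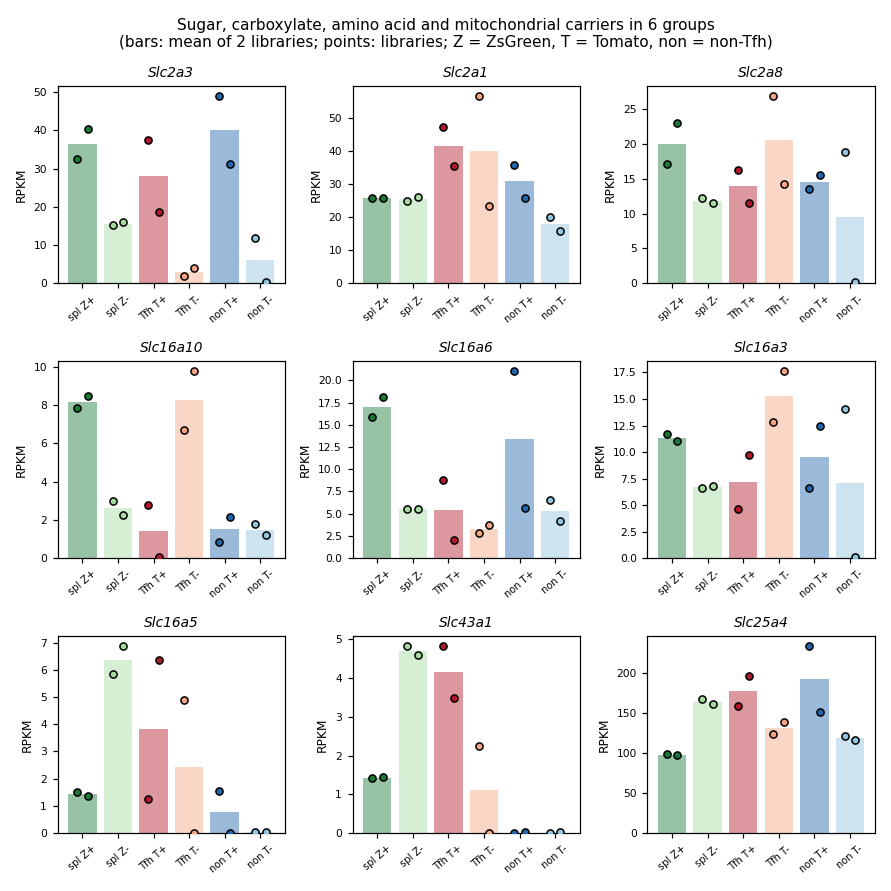
RPKM of 9 carriers (y axes, each from 0) in the 6 RNA groups, with bars for the mean of 2 libraries and points for each library. Slc2a3 is higher in both spleen ZsGreen+ libraries and in all 4 lymph node Tomato+ libraries than in their counterparts, while the lymph node values of Slc16a10, Slc16a6, Slc16a3 and Slc16a5 scatter between replicates.

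In the lymph node Slc2a3 was higher in all Tomato+ than in all Tomato- libraries, but no carrier difference by T-bet history passed the main test. No member passed the test for Tomato+ against Tomato- in Tfh cells, in non-Tfh cells or averaged over both, with 158 members tested. The shares of all 11746 genes that passed were 0.111%, 0.332% and 0.656%. At an unadjusted p below 0.05 edgeR gave 12, 12 and 14 members, against 5.83%, 8.94% and 11.0% of all genes. DESeq2 called 3, 2 and 5, and limma on log2(RPKM + 1) called 0 in each. Of the 5, Slc25a14, Slc22a17 and Slc11a1 were at 0.0300 RPKM or less in all libraries of 1 side. For DESeq2 and limma no share of all genes was taken, here or below, so their counts stand without a background. The difference between the Tfh and non-Tfh effects (the interaction) gave 0 members in edgeR with 0% of all genes, 6 members at an unadjusted p below 0.05 (6.35% of all genes), 3 in DESeq2 and 0 in limma. A miss here does not show equal levels, given the replicate spread above.

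Slc2a3 was at 37.5 and 18.7 RPKM in Tfh Tomato+, 49.1 and 31.2 in non-Tfh Tomato+, 1.88 and 3.86 in Tfh Tomato- and 11.9 and 0.359 in non-Tfh Tomato-. All 4 Tomato+ libraries lay above all 4 Tomato- libraries. The averaged log2 difference was 3.02 ± 0.85 (SE, adjusted p = 0.262, edgeR). It passed in DESeq2 (adjusted p = 0.0418) and in edgeR without non-Tfh Tomato- replicate 1 (log2 5.05, adjusted p = 0.00624), so the call turned on the test and on 1 library. Across the 6 groups Slc2a3 ordered as non-Tfh Tomato+, spleen ZsGreen+, Tfh Tomato+, spleen ZsGreen-, non-Tfh Tomato- and Tfh Tomato-, and the first 3 of these overlapped, as did the last 2. No test was made across the tissues. Slc2a1 was at 35.7 and 47.4 RPKM in Tfh Tomato+ and at 23.5 and 56.8 in Tfh Tomato-, with no separation.

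Counting Slc2a3, 3 of 158 members (1.90%) were higher in all 4 Tomato+ libraries, against 3.11% of all genes. A further 7 (4.43%) were lower in all 4, against 2.23%. Slc25a4 was at 152 to 235 RPKM in Tomato+ against 116 to 139 in Tomato- (log2 0.57 ± 0.18 SE, adjusted p = 0.322, edgeR), the opposite direction to its fall in spleen ZsGreen+. Slc25a14, a mitochondrial uncoupling protein relative, was at 1.74 to 4.43 RPKM against 0 to 0.0300, and its adjusted p was 0.141 in edgeR and 1.49e-04 in DESeq2. The members lower in Tomato+ were Slc50a1, Slc25a38, Slc31a2, Slc25a28, Slc11a1, Slc7a5 and Slc22a17. Slc22a17 was at 0 to 0.0187 RPKM in Tomato+ against 0.0538 to 6.73 in Tomato-. Slc25a14 was almost absent from Tomato- libraries, and Slc11a1 and Slc22a17 from Tomato+ libraries. They were tested through the side where they were higher, so the counts in both directions are descriptions only. Slc25a38 was at 15.6 to 27.9 RPKM against 32.1 to 53.3 and had also fallen in spleen ZsGreen+. Slc7a5, the leucine carrier LAT1, was at 0.472 to 2.13 RPKM against 2.47 to 4.72 (adjusted p = 0.646, edgeR). Slc11a1, a metal carrier of phagosomes, was at 0 to 0.0160 RPKM in Tomato+ and at 0.0297, 7.94, 3.45 and 0.0457 in Tomato-. Macrophage and monocyte markers were also higher in Tomato-, with sums of 1065 to 1506 RPKM against 133 to 516 in Tomato+, and all 15 had a lower averaged level in Tomato+. The B cell list, which holds class II genes, summed to 2065 to 3977 RPKM in Tomato- and 794 to 1267 in Tomato+. Its 14 genes did not all follow the sum. Averaged over both populations 10 were lower in Tomato+, 4 of which passed the test, and 4 were higher. In non-Tfh cells alone 7 were lower and 7 higher. Neutrophil markers summed to 454 and 366 RPKM in the Tomato- replicate 2 libraries and to 1.36 to 101 in the other lymph node libraries, with Mpo and Elane at 0 in all 8. The NK and innate-like list summed to 138 to 267 RPKM in Tomato+ and 16.3 to 29.7 in Tomato-. Proliferation markers were higher in Tomato+ in both populations, with sums of 235 and 257 against 124 and 128 RPKM in Tfh and of 154 and 190 against 78.4 and 105 in non-Tfh. All 12 had a higher averaged level in Tomato+, and 1 (Rrm2) passed the test. The part of these markers in the transporter values was not tested.

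In Tfh cells alone, values by Tomato were furthest apart relative to their spread for Slc25a14 and Slc22a17, followed by the taurine carrier Slc6a6 and the carnitine carrier Slc25a20. Slc6a6 was at 16.8 and 18.7 RPKM in Tfh Tomato+ against 5.74 and 8.62 in Tfh Tomato- (log2 1.29 ± 0.41 SE, adjusted p = 0.742, edgeR). Slc25a20, which brings acylcarnitines into mitochondria, was at 26.9 and 38.8 RPKM against 10.9 and 12.3 (adjusted p = 0.764, edgeR). Neither passed the adjusted test. In non-Tfh cells the glucose 6-phosphate carrier Slc37a4 was at 6.29 and 7.71 RPKM in Tomato+ against 0.152 and 0.415 in Tomato-, while in Tfh cells it was at 0.862 and 1.54 against 8.33 and 11.4. This crossing had the smallest interaction p of the members (0.00200 unadjusted, adjusted p = 0.774 in edgeR, 1.24e-04 in DESeq2). Slc12a4, a potassium chloride cotransporter, crossed the other way, at 4.40 and 4.70 against 0.152 and 1.21 RPKM in Tfh and at 0.214 and 1.47 against 8.71 and 22.3 in non-Tfh (adjusted p = 0.774 in edgeR, 0.00244 in DESeq2).

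Between follicular and other antigen-specific cells, the anion carrier Slc26a11 was the only member called. It was at 77.2 and 61.2 RPKM in Tfh Tomato+ and 72.7 and 115 in Tfh Tomato-, and at 8.94 and 15.6 in non-Tfh Tomato+ and 25.7 and 22.7 in non-Tfh Tomato-. Every Tfh library exceeded every non-Tfh library, with a log2 difference of 2.15 ± 0.26 (SE, adjusted p = 0.0100, edgeR). The members called were 1 of 158, against 1.07% of all genes, with 14 members at an unadjusted p below 0.05 (12% of all genes). DESeq2 called 7 and limma 1, again without a share of all genes beside them. Without both Tomato- replicate 2 libraries the difference was 1.94 and missed the threshold (adjusted p = 0.101). Slc26a11 overlaps Sgsh in the RefSeq annotation, and Sgsh itself was at 5.62 to 11.2 RPKM in Tfh and 1.0 to 6.29 in non-Tfh libraries (log2 1.03, adjusted p = 0.531, edgeR). Within the spleen Slc26a11 was near the non-Tfh level, at 8.11 to 15.6 RPKM.

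**Figure D4:**
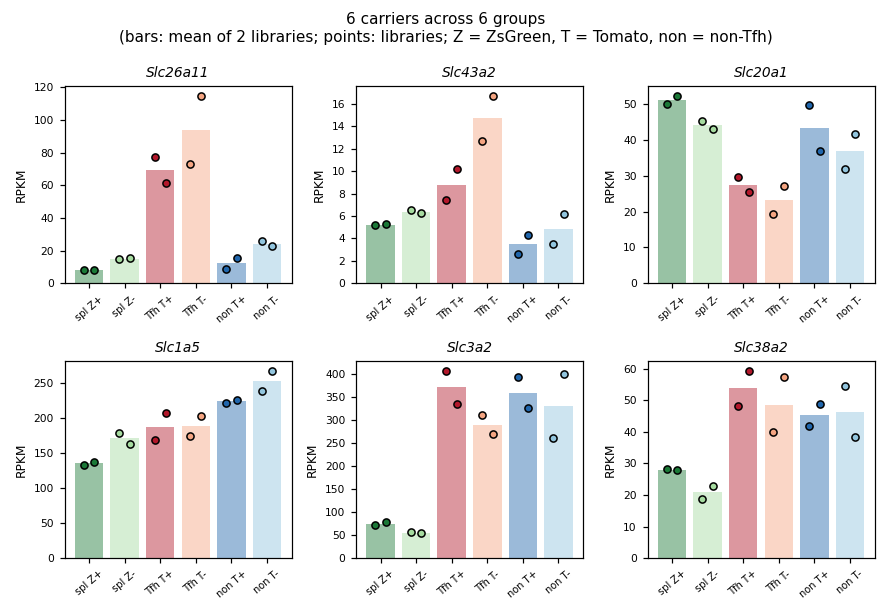
RPKM of 6 carriers (y axes, each from 0) in the 6 RNA groups, with bars for the mean of 2 libraries and points for each library. Slc26a11 is at 61.2 to 115 in the 4 Tfh libraries and at 25.7 or less in the other 8, while Slc3a2 and Slc38a2 are higher in all 8 lymph node libraries than in the 4 spleen libraries.

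Counting Slc26a11, 5 of 158 members (3.16%) were higher in all Tfh libraries, against 4.04% of all genes. A further 4 (2.53%) were lower in all, against 2.52%. Apart from Slc26a11 none of these passed the adjusted test. Slc43a2, the amino acid carrier LAT4, was at 7.42 to 16.7 RPKM in Tfh against 2.61 to 6.21 in non-Tfh (log2 1.39 ± 0.33 SE, adjusted p = 0.130 in edgeR and 0.00636 in DESeq2). Slc5a3 was at 6.44 to 11.1 against 1.46 to 4.59 RPKM, and the oxoglutarate carrier Slc25a11 was also higher. The folate carrier Slc46a1 was at 0.0592 to 3.80 RPKM in Tfh against 0 to 0.0435 in non-Tfh (adjusted p = 0.254, edgeR). Slc43a2 and Slc46a1 both belong to the phagocyte transporter list, of which 9 of 14 genes had enough reads to be tested. Of the 9, 8 had a higher averaged level in Tfh (median log2 difference 1.18), against 5936 of all 11746 genes (median 0.01). None passed (2 at an unadjusted p below 0.05, edgeR). Slc46a1 and Slc7a7 were almost absent from non-Tfh libraries and were tested through their Tfh level. The counts that include them are thus descriptions only. Slc7a7 was at 5.94 RPKM in Tfh Tomato- replicate 1, at 0.337 or less in the other Tfh libraries and at 0.113 or less in non-Tfh. The list summed to 52.3 to 89.8 RPKM in Tfh and 25.1 to 52.1 in non-Tfh. Macrophage and monocyte markers summed to 379 to 1176 RPKM in Tfh and 133 to 1506 in non-Tfh, B cell markers to 885 to 2746 and 794 to 3977, and proliferation markers to 124 to 257 and 78.4 to 190, so these ranges overlapped. The part of these markers in the follicular differences was not tested. Slc1a5 was at 169 to 207 RPKM in Tfh against 223 to 268 in non-Tfh (log2 -0.41 ± 0.12 SE, adjusted p = 0.235 in edgeR and 0.0323 in DESeq2). Slc20a1 was at 19.2 to 29.7 against 32.0 to 49.8 RPKM (adjusted p = 0.228, edgeR), and Slc17a9 and Slc35f2 were also lower. Of the regulators, Hif1a was higher in Tfh cells, at 216 to 249 RPKM against 91.9 to 134 (log2 0.98 ± 0.11 SE, adjusted p = 0.00636, edgeR). The sodium pump subunit Atp1b3 was lower, at 182 to 254 against 266 to 391 RPKM (adjusted p = 0.0496, edgeR), a call lost on leaving out any 1 of the 8 libraries (adjusted p 0.0597 to 0.188).

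Summed over its members, the nutrient class stood at 837 to 904 RPKM in the spleen libraries and at 1097 to 1270 in the lymph node libraries. Its median member did not follow the sum, at 5.83 to 6.28 RPKM in the spleen and 1.99 to 6.69 in the lymph node. Of the 55, 53 to 54 were at 1 RPKM or more in a spleen library and 31 to 47 in a lymph node library. The ion class summed to 500 to 543 and 429 to 683 RPKM, and the other class to 1507 to 1581 and 1277 to 1535. Tissue, strain, gate, immunization and library batch differ together between spleen and lymph node and cannot be told apart, so these levels stand side by side without a test. The gap of the nutrient class lay in the amino acid carriers, which summed to 383 to 394 RPKM in the spleen and 650 to 834 in the lymph node. Slc3a2 alone went from 53.7 to 78.1 RPKM in the spleen to 261 to 408 in the lymph node. Slc38a2 was at 18.8 to 28.4 and 38.4 to 59.4 RPKM, and Slc15a3, a lysosomal peptide and histidine carrier, at 1.06 to 1.37 and 2.33 to 16.7. These 3 members (1.88%) had all 8 lymph node libraries above all 4 spleen libraries, against 3.08% of the 10656 genes of at least 1 RPKM in the spleen. A further 11 members (6.88%), among them Slc40a1, Slc14a1 and Slc29a4, had all 8 below, against 9.55% of those genes. Slc40a1, the iron exporter, was at 0 in 5 of the 8 lymph node libraries and at most 1.98 RPKM in the others, and erythroid markers, which summed to 183 to 223 RPKM in the spleen, summed to 0 to 22.6 in the lymph node.

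**Figure D5:**
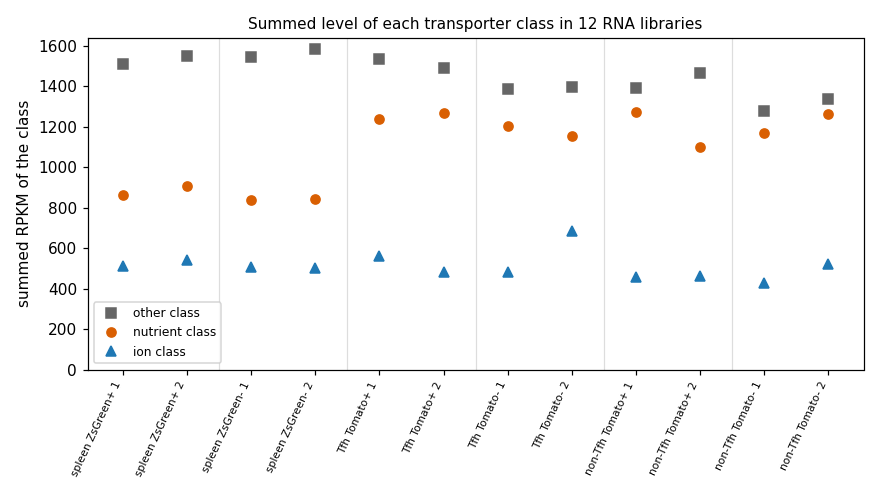
Summed RPKM of the nutrient (55 genes), ion (43) and other (62) classes (y axis, from 0) in each of the 12 RNA libraries (x axis). The nutrient sum is 837 to 904 in the 4 spleen libraries and 1097 to 1270 in the 8 lymph node libraries. The median of its members, not drawn, is 5.83 to 6.28 and 1.99 to 6.69.

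The spleen changes were read in the lymph node groups as well, which share no library with the spleen comparison. The comparisons are unlike in tissue and in contrast. In the spleen ZsGreen+ cells were set against ZsGreen- cells, all of them tdTomato+. In the lymph node cells in which T-bet had driven Cre were set against cells without that mark. A shared or opposite sign is thus given as a description only. Of the 25 members that rose in spleen ZsGreen+, 15 (60.0%) had a positive averaged Tomato difference, against 56.9% of all genes that rose. Of 22 tested members that fell, 12 (54.5%) had a negative one, against 48.3% of all genes that fell. These shares are near those of all genes. Slc2a3 kept its order in both tissues, as given above, whereas Slc16a10 was at 6.69 and 9.80 RPKM in Tfh Tomato- and at 0.0714 to 2.78 in the other 6 lymph node libraries, and Slc43a1 was at 2.24 to 4.83 RPKM in 3 of the 4 Tfh libraries and at 0.0207 or less in the rest.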

How the data were processed

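Polyadenylated RNA of 12 libraries was used; the 8 DNase libraries were not used here. The deposited tables give read counts and RPKM per RefSeq transcript, 1 library per table, and the authors' RPKM are reads per kilobase scaled to the library total. The spleen tables carry their count and length headings the wrong way round, as their values show. The submitters' processing notes name CASAVA 2.18, Bowtie2, SICER 1.1, edgeR and mm9; the sources used here do not give which step used which, or whether counting used strand. The row with the most reads was kept for each symbol.

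Counts were tested with edgeR 4.0.16 in R 4.3.3 (TMM, filterByExpr, quasi-likelihood F test, Benjamini-Hochberg over all genes, threshold 0.05). The 4 spleen libraries were fitted alone and the 8 lymph node libraries together with 1 mean per group. The SE is the absolute log2 fold change divided by the square root of F. Fold changes of genes with almost no reads in a group rest on edgeR's prior count. Alternatives were DESeq2 1.42.0, limma 3.58.1 on log2(RPKM + 1) and log2(RPKM + 0.1), other factors and filters, a replicate block and leaving out libraries.

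Members, classes (by family) and gene lists were chosen with earlier results of these data known. Named were preset nutrient and ion carriers, the 10 largest rises and falls past the threshold that reached 3 RPKM, the 6 smallest p where fewer than 6 members passed, the 3 most abundant of a group and phagocyte transporters. Some genes that this rule names are not reported here. The other named members were chosen after their values were seen. Promoters and gene overlaps come from RefSeq tables of GRCm38, matched by symbol. All 160 members matched the gene table, and 27 overlap another coding gene. Sequences are not shown for members without a single entry.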

Additional observations from a re-analysis of the deposited data

How the results depend on the processing

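In the spleen 48 of 160 members were called as reported. The filter of at least 5 RPKM in 2 libraries called 41 of the 113 members it tested, the other alternatives over all 160 called 43 to 59, and the lists at a minimum of 0.5 or 5 RPKM gave 55 and 38. Leaving out 1 library gave 43 to 53. Of the 48 calls, 37 kept their direction and their side of the threshold under every alternative that tested them, all 48 kept their direction, and 38 were called without ZsGreen+ replicate 2. In the lymph node DESeq2 called 3 members for Tomato in Tfh, 2 in non-Tfh, 5 averaged, 7 for Tfh against non-Tfh and 3 for the interaction; the cause was not tested. Leaving out 1 library gave 0 to 1 members in non-Tfh, 0 to 1 averaged and 1 to 2 for Tfh against non-Tfh. In all 3 the higher count came without non-Tfh Tomato- replicate 1, where Slc2a3 (first 2) or Slc2a8 (the third, adjusted p = 0.0472) was added. Without both Tomato- replicate 2 libraries the count for Tfh against non-Tfh was 0, with fewer libraries in the fit. The median of the other class was 0.02 in the spleen, 0.03 for averaged Tomato and -0.06 for Tfh against non-Tfh. Over members of at least 5 RPKM it was 0.0781, 0.0763 and -0.0843, and as a difference of log2(RPKM + 1) it was 0.0551, 0.0947 and -0.0100; the cause was not tested. Same-numbered libraries did not deviate together (correlation 0.0623 in the spleen, -0.0126 to 0.0309 in the lymph node). No pairing by number was thus seen, though the replicate spread of the lymph node libraries could hide one. With the replicate block the spleen gave 52 calls, which held all 48, Tfh against non-Tfh gave 1 and the other comparisons 0.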
